A study of Mus musculus with 2 samples.

Results

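The genes of central carbon metabolism were followed through single cells of the mouse fetal liver with and without Brd9, a bromodomain subunit of a BAF chromatin remodelling complex. The 35 members were taken by symbol from a list of pathway genes. All 35 were among the 32285 genes of both libraries. They comprise 19 genes of glycolysis and of glucose and lactate transport, 7 of the pentose phosphate pathway and 9 of the tricarboxylic acid (TCA) cycle. Aldoa had 2 rows, which were summed, and nearly all of its UMIs were in the row ENSMUSG00000030695.

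The cells were lineage-negative and Kit-positive, from C57BL/6 embryos at E14.5. One library came from CD45.2(+) Vav1-iCre Brd9fl/fl embryos (the knockout), in which a Cre driven by the Vav1 promoter acts in blood cells, and 1 from CD45.2(+) Brd9fl/fl embryos without the Cre (the control, titled WT in the labels), so both genotypes carry the floxed alleles. Brd9fl/fl males had been mated with females that also carried Vav1-iCre. The number of embryos was not given in the sources used here, and each library held cells of both sexes. With 1 library per genotype there was no replicate and no test, and every interval given is a 95% interval for counting error only.

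Glycolysis splits glucose into pyruvate in the cytosol, and its last steps yield ATP and lactate. The pentose phosphate pathway branches from its first product and supplies NADPH and ribose, and the TCA cycle oxidises pyruvate-derived carbon in mitochondria. Several glycolytic steps have isoenzymes from different genes, and maturing red cells, which end without mitochondria, are known for a pyruvate kinase of their own from Pklr and for Bpgm, which makes the bisphosphoglycerate that lowers the oxygen affinity of haemoglobin.

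After filtering there were 6756 knockout and 6860 control cells, with a median of 36008 and 38486 UMIs. Kit was found at 63.8 and 67.0 CPM (UMIs of a gene per 1000000 UMIs), Cd3e at 0 in both, and Ly6g at 0.00786 CPM in the knockout and 0 in the control. Brd9 itself was at 7.05 CPM in knockout and 27.2 CPM in control cells, a log2 ratio of -1.95. Which exons the Cre removes was not given in the sources used here, and 3′ counts need not lie in them. Female cells made up 58.9% of the knockout and 23.0% of the control library. The libraries shared 16 barcodes. Clusters were built without the members and other genes of these pathways and named from marker genes, so each class stands for cells like the named type. There were 4960 knockout and 4984 control erythroid cells, 419 and 441 HSC/MPP (stem and multipotent progenitor) cells, 409 and 265 MEP (megakaryocyte-erythroid progenitor) cells, 388 and 628 GMP (granulocyte-monocyte progenitor) cells, 283 and 182 mast/basophil cells and 209 and 297 monocyte/dendritic cells. The GMP class also held cells with neutrophil granule genes. Megakaryocyte-like cells, 88 and 63, were too few to compare.

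In the control library, the branches were spread over the cell classes in different ways. The pentose phosphate genes stood high in GMP cells. All 7 were higher there than in HSC/MPP cells, with a median log2 ratio of 0.85, and 4 passed a log2 ratio of 0.5, against 7.91% of the 6407 genes compared. This was not particular to GMP cells. In monocyte/dendritic cells all 7 were also higher than in HSC/MPP cells, with a median of 0.38 and 1 past 0.5, against 6.72%. In mast/basophil cells 6 of 7 were higher, with a median of 0.15 and 3 past 0.5, against 10.5%. G6pdx, which encodes the first and rate-limiting enzyme of the pathway, was at 49.1 CPM in GMP cells and 19.2 CPM in HSC/MPP cells, a log2 ratio of 1.35. Its mean over these classes reached 20 CPM, the minimum for the comparison, only through its GMP level. Pgd, the next NADPH-yielding enzyme of the pathway, was at 203 and 98.4 CPM. Rpia, the isomerase that makes ribose phosphate, went from 40.4 CPM in HSC/MPP cells to 92.0 in GMP cells and was higher still in erythroid cells, at 138 CPM. In the knockout library all 7 were again higher in GMP than in HSC/MPP cells, with a median of 0.75 and 5 past 0.5, against 8.20% of all genes.

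The TCA genes were more even than the pentose phosphate genes between HSC/MPP and GMP cells. From HSC/MPP to GMP cells of the control their median log2 ratio was 0.00. Of the 9, 0 passed 0.5 in either direction, against 7.91% of all genes for higher and 10.1% for lower values. For so few genes this is close to the share of any gene. From HSC/MPP to erythroid cells 2 of 9 were at least 0.5 higher and 1 lower, against 19.9% and 20.9% of all genes. Of the 7 pentose phosphate genes 1 was higher and 1 lower there, so the TCA genes were not more even in that comparison. Single TCA genes stood out in classes other than GMP. Fh1, fumarate hydratase, was at 211 CPM in monocyte/dendritic cells and between 88.2 and 130 CPM in the other classes. Cs, citrate synthase, was at 161 CPM in erythroid cells against 96.0 in HSC/MPP cells, a log2 ratio of 0.75. Idh3a, a subunit of the NAD-dependent isocitrate dehydrogenase, was at 186 against 98.7 CPM, a log2 ratio of 0.91. Mdh1, which is the cytosolic malate dehydrogenase, was lower in erythroid cells, at 140 against 223 CPM, whereas the mitochondrial enzyme Mdh2 was at 404 against 357 CPM.

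Glycolysis genes went both ways. Of its 17 members at or above the minimum level, a mean of 20 CPM over the 2 groups compared, 5 were at least 0.5 higher and 5 at least 0.5 lower on the log2 scale in erythroid than in HSC/MPP cells of the control, against 19.9% and 20.9% of all genes, shares close to those of any gene. The lower 5 were Hk2, Gpi1, Pgk1, Pgam1 and Pkm. Pkm, the pyruvate kinase of most tissues, was at 515 CPM in HSC/MPP cells and 156 CPM in erythroid cells. Hk2, the hexokinase of growing cells, was at 37.0 and 11.8 CPM, and reached the minimum only through its HSC/MPP level. The higher 5 were Hk1, Pfkm, Slc2a3, Slc16a1 and Slc16a3. Of these, Pfkm, at 9.73 CPM in HSC/MPP and 35.8 CPM in erythroid cells, and Slc16a3 reached the minimum only through their erythroid level. Hk1, the hexokinase that red cells keep, was at 49.9 CPM in HSC/MPP cells and 129 CPM in erythroid cells. Slc16a3, a transporter that exports lactate, was at 13.9 and 79.7 CPM, a log2 ratio of 2.51 and the highest among these members. MEP cells of the control, compared with HSC/MPP cells in the same way, had 6 members higher, against 6.88%, and 0 lower, against 9.45%. They were Slc16a3, Hk1, Slc2a3, Ldha, Slc16a1 and Rpia. Slc16a3, at 13.9 CPM in HSC/MPP cells, reached the minimum there only through its MEP level. Ldhb, the lactate dehydrogenase subunit of the heart, was at 29.3 CPM in HSC/MPP and 33.5 CPM in GMP cells and at 0.345 CPM in erythroid cells. After thinning to 15000 UMIs per cell, Ldhb was found in 0.629% of erythroid cells of the control, not above Alb, a hepatocyte transcript, at 1.03%. The thinning left out 55 erythroid cells with fewer UMIs, and without it the shares were 1.40% and 2.85%. Among the erythroid cells with the least alpha-globin (at most 2.58 UMIs per 10000), Ldhb was found in 1.36% (0.843 to 2.07) and Alb in 0.906% (0.496 to 1.51) of thinned control cells, with intervals that overlapped, and in 2.74% and 2.80% without thinning.

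**Figure D1:**
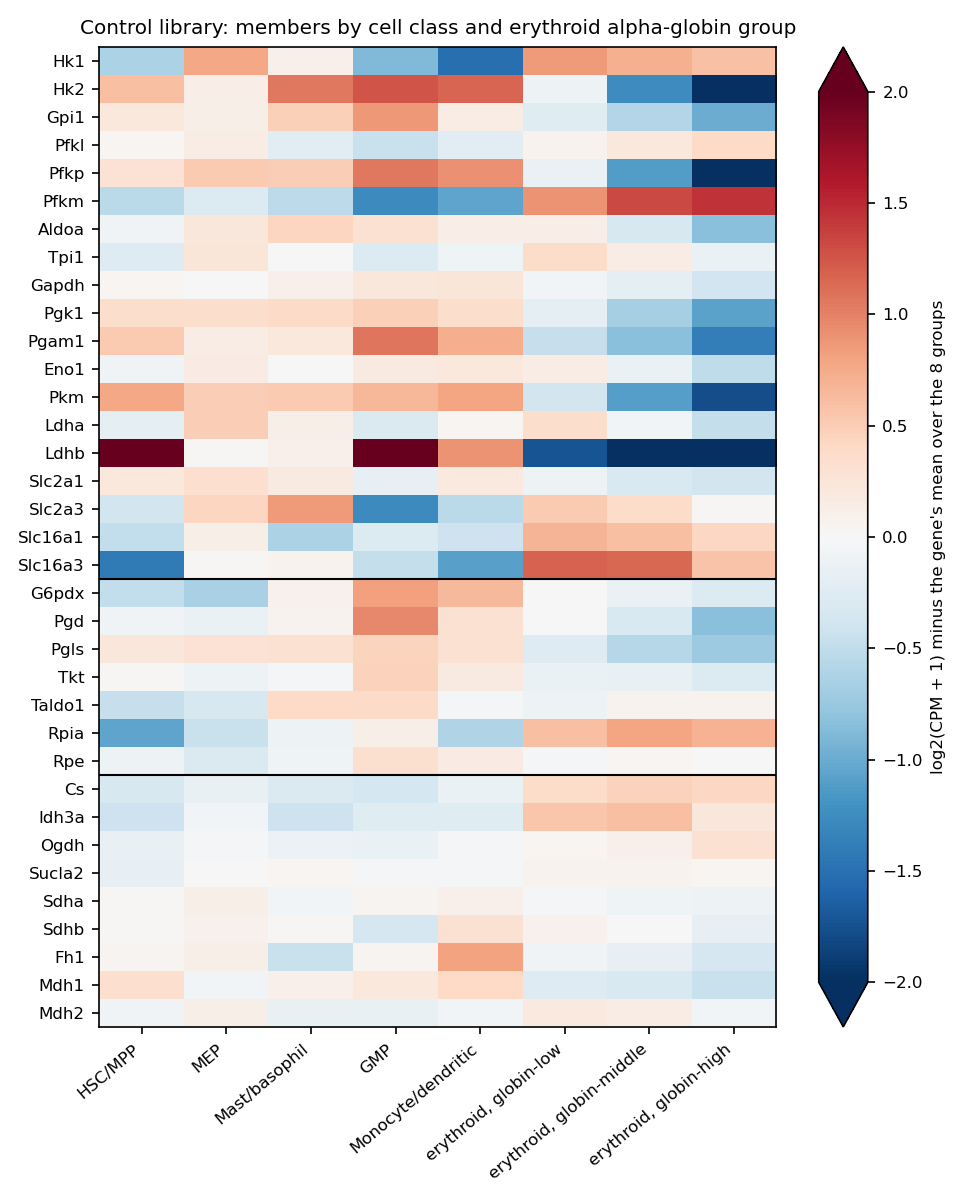
Level of each member in the control library, as log2(CPM + 1) minus the mean of that gene over the 8 groups, in 5 progenitor classes and in erythroid cells cut by alpha-globin level. Rows are ordered by branch, with black lines between glycolysis, pentose phosphate and TCA genes, and the colour scale ends at -2 and 2, which Ldhb, Hk2 and Pfkp exceed. Most pentose phosphate rows are warm in GMP cells, while Rpia is warmest in the erythroid groups. The TCA rows are mostly pale apart from Fh1 in monocyte/dendritic cells. Hk2, Pfkp, Pgam1 and Pkm are bluest in the globin-high group while Pfkm is reddest there.

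Erythroid cells were ordered by their alpha-globin level (Hba-a1 and Hba-a2) and cut at 2.58 and 18.9 UMIs per 10000 into 3 groups of equal size over both libraries, called globin-low (1746 knockout and 1569 control cells), globin-middle (1520 and 1794) and globin-high (1694 and 1621) here. These are ranges of a score and not cell types, and 360 and 329 cells lay within 10% of the cuts. From globin-low to globin-high cells of the control, 11 of 31 members at the minimum level were at least 0.5 lower on the log2 scale, against 14.2% of all genes, and 10 of the 11 were glycolysis genes. The median was -0.62 over 15 glycolysis members, -0.14 over the pentose phosphate genes, -0.18 over the TCA genes and -0.09 over all genes. Pkm went from 233 to 139 to 87.4 CPM over the groups. Pgam1, phosphoglycerate mutase, went from 230 to 120 CPM, and Ldha, the main lactate dehydrogenase subunit of these cells, from 1123 to 634 CPM. Pfkm, the muscle-type phosphofructokinase, went the other way, from 28.2 to 41.6 CPM. It was the 1 member that was at least 0.5 higher, with a log2 ratio of 0.56, against 9.61% of all genes. Pgd, at -0.85, was the 1 pentose phosphate member past -0.5, and no TCA member passed it. Hk2 and Pfkp, the platelet-type phosphofructokinase, were below the minimum level here and went from 22.4 to 2.48 CPM and from 15.6 to 3.47 CPM. Of the red cell isoenzymes outside the 35, Pklr went from 82.8 to 161 CPM and Bpgm from 18.6 to 40.2 CPM.

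In the knockout library the same ordering gave 8 of 31 members at least 0.5 lower in globin-high cells, 7 of them glycolysis genes, against 11.5% of all genes. The glycolysis median was -0.45, against -0.06 over all genes. Pfkm was again the 1 member at least 0.5 higher, with a log2 ratio of 0.71, against 9.51% of all genes. Aldoa, aldolase, was lower by a log2 ratio of -0.79 along the knockout groups and -0.97 along the control groups. For Pkm the values were -1.07 and -1.41, and for Eno1, enolase, -0.45 and -0.65.

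Knockout and control were then compared. A member was called higher or lower where its log2 ratio was at least 0.25 in size, a 1.19-fold difference, and its mean level in both libraries was at least 20 CPM. Over the whole library 33 members reached this level. Aldoa, Eno1, Pkm and Slc16a3 were called higher, against 1.93% of 6127 genes called higher, and Pfkm was called lower, against 2.14%. In erythroid cells 31 members reached the level. Aldoa, Pgk1, Pgam1, Eno1, Pkm and Slc16a3, 6 in all, were called higher, against 2.31% of 5933 genes, and Pfkm alone was called lower, against 2.17%. All 7 belong to glycolysis and lactate transport, and 0 of 7 pentose phosphate and 0 of 9 TCA members were called. The median log2 ratio in erythroid cells was 0.11 over 15 glycolysis members, 0.03 over the pentose phosphate genes, 0.00 over the TCA genes and 0.03 over all genes, of which the central 90% lay between -0.15 and 0.18.

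**Figure D2:**
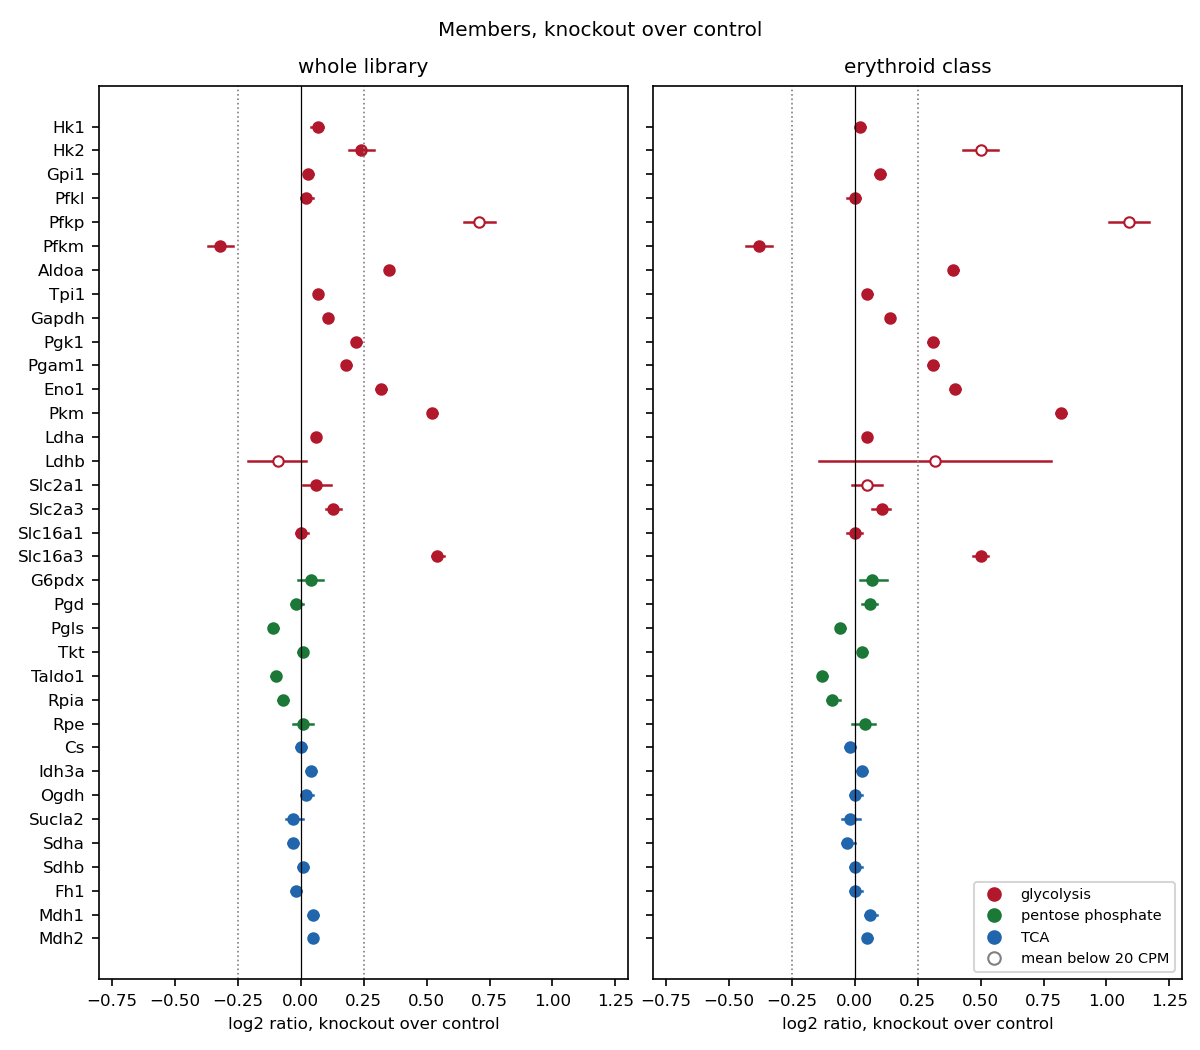
Log2 ratio of knockout over control for each of the 35 members over the whole library (left) and in erythroid cells (right), with 95% intervals for counting error, 1 library per genotype. Dotted lines mark 0.25 in either direction and open circles mark members with a mean below 20 CPM. Pentose phosphate and TCA genes lie between the dotted lines, while Pkm at 0.82 and Pfkm at -0.38 stand apart in erythroid cells.

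Among the called members, Pkm had the largest log2 ratio in erythroid cells. Pkm (ENSMUSG00000032294, chr9:59656368-59679375 of GRCm38, plus strand) was at 276 CPM (274 to 278) in the knockout and 156 CPM (154 to 158) in control cells. The log2 ratio was 0.82 (0.80 to 0.84). Pklr (ENSMUSG00000041237, chr3:89136142-89146784, plus strand) was lower in the same cells, at 90.1 CPM (88.9 to 91.5) against 124 CPM (122 to 125), a log2 ratio of -0.46 (-0.49 to -0.43). The ratio of Pkm to Pklr UMIs was 3.06 in knockout and 1.26 in control erythroid cells, a 2.43-fold difference. Across the globin groups the Pkm log2 ratio was 0.65, 0.97 and 0.99 from low to high, and that of Pklr was -0.49, -0.42 and -0.44. In both libraries Pkm was lower and Pklr higher in globin-high than in globin-low cells, and within each group the knockout held more Pkm and less Pklr. In single cells thinned to 15000 UMIs, Pkm was found in 90.9% of knockout and 73.0% of control erythroid cells, and Pklr in 69.8% and 79.6%. The GMP class, which should lack Pklr, gave 2.68% and 1.47%. The median UMI count was 39044 and 41213 in erythroid and 29502 and 30718 in GMP cells, and without thinning the erythroid shares were 97.3% and 89.7% for Pkm and 90.7% and 95.4% for Pklr.

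Phosphofructokinase, the committed step of glycolysis, is encoded by Pfkl, Pfkm and Pfkp. Pfkp (ENSMUSG00000021196, chr13:6579768-6648777, minus strand) was at 19.2 CPM (18.6 to 19.8) in knockout and 9.02 CPM (8.62 to 9.43) in control erythroid cells. Its log2 ratio of 1.09 (1.01 to 1.17) was the highest of the 35 members there, but its mean lay below 20 CPM, so it was not counted among the calls. Of the globin groups, Pfkp reached the minimum in the globin-low cells only, at 29.2 and 15.6 CPM, and there only through its knockout level. Pfkm (ENSMUSG00000033065, chr15:98092589-98132451, plus strand) was at 27.5 CPM in knockout and 35.8 CPM in control cells, a log2 ratio of -0.38 (-0.43 to -0.33). Pfkl, the liver type and the main source of phosphofructokinase UMIs in every class, was at 98.4 and 98.6 CPM. Pfkp was therefore 13.2% (12.8 to 13.6) of phosphofructokinase UMIs in knockout and 6.29% (6.02 to 6.56) in control erythroid cells, and Pfkm 19.0% and 24.9%.

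The upstream bases of 4 of these genes are shown because 2 were higher (Pfkp and Pgk1) and 2 lower (Pfkm and Pklr) in knockout erythroid cells. For each, 1 RefSeq start within 6 bases of the GENCODE gene start was taken. Further RefSeq starts are not shown. They lie 15882, 15967 and 19471 bases from the GENCODE start for Pfkm and 481 bases from it for Pklr. Each run is the 250 bases before the start taken, on the gene's strand (GRCm38.p6), at chr13:6648772-6649021 for Pfkp, chrX:106186850-106187099 for Pgk1, chr15:98092339-98092588 for Pfkm and chr3:89135892-89136141 for Pklr. Capitals mark ACGTG and GCGTG, the core letters of hypoxia response elements, CACGTG, an E-box that contains ACGTG, and AGATAA and TGATAA, forms of the GATA motif, on either strand.
Pfkp: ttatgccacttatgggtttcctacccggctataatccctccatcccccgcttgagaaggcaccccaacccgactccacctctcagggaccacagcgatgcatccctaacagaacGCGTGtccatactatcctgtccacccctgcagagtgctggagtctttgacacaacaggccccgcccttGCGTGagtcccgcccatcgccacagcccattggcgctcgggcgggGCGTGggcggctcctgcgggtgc
Pgk1: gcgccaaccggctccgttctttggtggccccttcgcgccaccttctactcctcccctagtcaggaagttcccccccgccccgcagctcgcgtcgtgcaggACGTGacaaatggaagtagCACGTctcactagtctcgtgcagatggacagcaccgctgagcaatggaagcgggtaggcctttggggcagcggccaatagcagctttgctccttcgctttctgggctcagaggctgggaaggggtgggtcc
Pfkm: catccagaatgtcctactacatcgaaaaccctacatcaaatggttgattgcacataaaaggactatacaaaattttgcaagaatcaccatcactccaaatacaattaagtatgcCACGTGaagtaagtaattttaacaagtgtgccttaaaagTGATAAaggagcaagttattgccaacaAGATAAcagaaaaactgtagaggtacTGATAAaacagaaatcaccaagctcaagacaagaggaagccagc
Pklr: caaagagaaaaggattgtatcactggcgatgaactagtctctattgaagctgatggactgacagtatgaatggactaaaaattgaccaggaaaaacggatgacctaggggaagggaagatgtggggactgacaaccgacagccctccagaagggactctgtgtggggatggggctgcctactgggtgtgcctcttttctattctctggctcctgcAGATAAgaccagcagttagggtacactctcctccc

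These letters held 3 GCGTG in Pfkp and 2 ACGTG in Pgk1, with no GATA form in either, 3 GATA forms and 1 CACGTG in Pfkm, and 1 AGATAA in Pklr. The GATA forms did not divide the higher from the lower genes in the windows not shown. TGATAA was found upstream of 1 start each of Pkm and Aldoa, both called higher, and in 18.2% of the 11 windows of the 6 members called higher, while 1 other start of Pfkm and 1 of Pklr had no GATA form. The 4 genes and the motifs were chosen after the values were known, so the matches are a description of these windows. Over all RefSeq windows of 300 bases (250 before and 50 after a start), 33 members had 49 windows. ACGTG or GCGTG was in 79.6% of these, in 66.3% of the 6277 windows of genes at or above 20 CPM and in 43.8% of all 32851 windows. The G and C content was 60.5%, 61.4% and 53.8% in these sets. By branch the share was 78.6% for glycolysis, 75.0% for the pentose phosphate pathway and 84.6% for the TCA cycle. Counted apart, ACGTG was in 54.5% of the 11 windows of members called higher. It was in 12.5% of 8 pentose phosphate windows, 61.5% of 13 TCA windows and 28.1% of windows of genes at or above 20 CPM. For GCGTG these shares were 36.4%, 75.0%, 61.5% and 54.7%. Whether either motif goes with the calls was not tested. A GATA form was in 18.4% of member windows, 9.61% of the windows of genes at or above 20 CPM and 18.6% of all windows.

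The other erythroid calls lay in the middle of glycolysis and in lactate export. Aldoa (chr7:126795234-126800751, minus strand) was at 513 CPM (510 to 516) in the knockout and 391 CPM (388 to 393) in control cells, a log2 ratio of 0.39. Eno1 (chr4:150236721-150248879, plus strand) was at 201 CPM (199 to 203) and 153 CPM (151 to 155), a log2 ratio of 0.40. Pgk1, phosphoglycerate kinase, was at 236 and 190 CPM, and Pgam1, the mutase that follows it, at 222 and 179 CPM, each with a log2 ratio of 0.31. For Aldoa, Pgk1 and Eno1 the ratio was larger in the globin-high than in the globin-low cells, 0.50 against 0.32, 0.39 against 0.25 and 0.50 against 0.30, with intervals that did not overlap. For Pgam1 it was 0.33 and 0.30, within the counting error. Slc16a3 (chr11:120948480-120960868, plus strand) was at 113 CPM (111 to 114) and 79.7 CPM (78.5 to 80.9), a log2 ratio of 0.50.

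Neighbouring steps differed less. Tpi1, triose phosphate isomerase, was at 558 and 538 CPM, Gapdh at 1415 and 1280 CPM and Ldha at 910 and 877 CPM, with log2 ratios of 0.05, 0.14 and 0.05. The glucose transporter Slc2a3 was at 63.9 and 59.4 CPM, and Slc16a1, the other lactate transporter, at 90.5 and 90.7 CPM. Hk1 was at 131 and 129 CPM and Gpi1, glucose phosphate isomerase, at 205 and 191 CPM. The glucose transporter Slc2a1, at 19.9 and 19.3 CPM, was just below the minimum. Hk2 was below the minimum in the erythroid class as a whole, at 16.7 and 11.8 CPM with a log2 ratio of 0.50. In globin-low cells it was called higher, at 28.7 and 22.4 CPM. There 8 of 34 members were called higher, against 2.19% of all genes, adding Hk2 and Pfkp to the erythroid 6, and Pfkm was called lower, against 2.16%. Of the 8, Pfkp reached the minimum only through its knockout level. In globin-middle cells the called members were those of the whole erythroid class, 6 higher and 1 lower of 31, against 2.88% and 2.37%. They were the same in globin-high cells, against 3.05% and 2.38%.

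**Figure D3:**
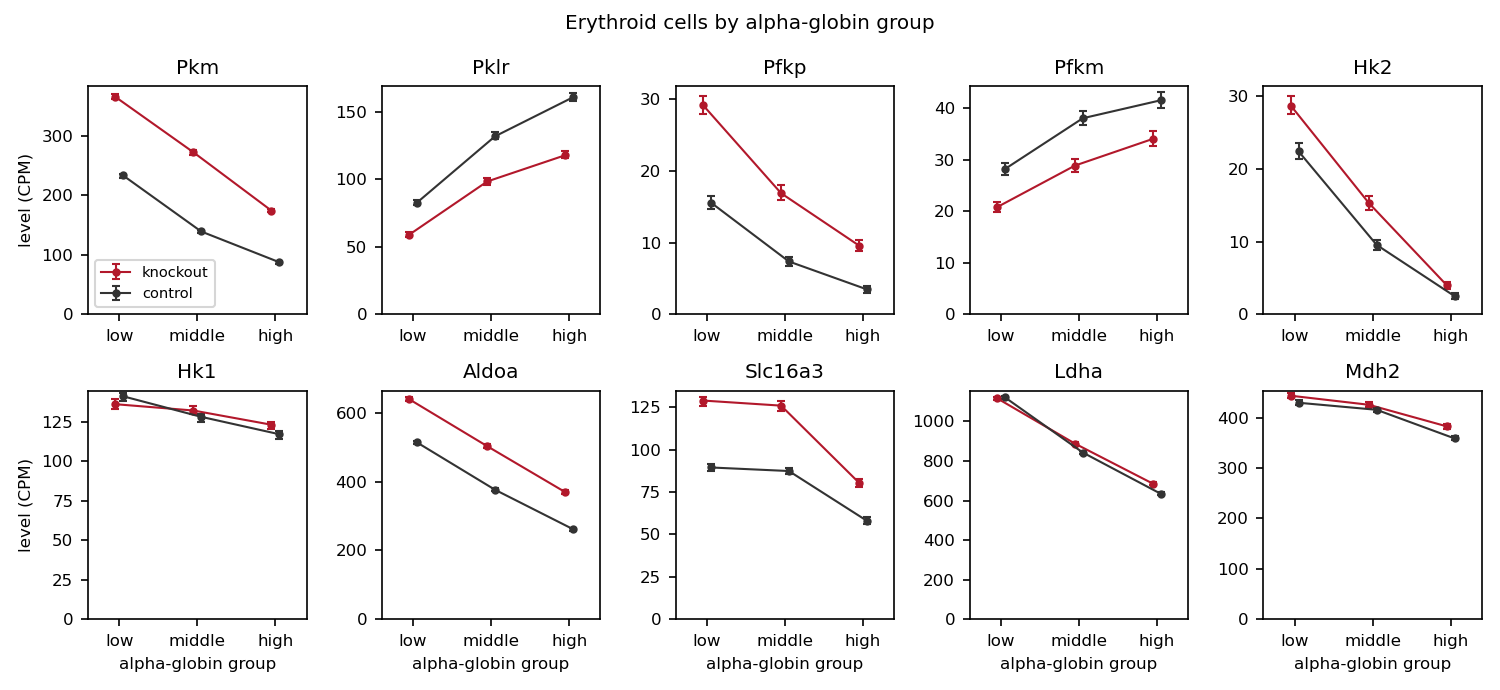
Level in CPM of 10 genes in globin-low, globin-middle and globin-high erythroid cells of the knockout (red) and control (black) library, with 95% Poisson intervals and axes from 0. Pkm, Aldoa, Pfkp and Hk2 slope down and lie higher in the knockout, Pklr and Pfkm slope up and lie lower in the knockout, and the Ldha and Mdh2 curves of both libraries lie close together.

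In the pentose phosphate pathway the highest log2 ratios over the whole library were 0.04 for G6pdx, 0.01 for Tkt, transketolase, and 0.01 for Rpe, an epimerase of the pathway. The lowest were -0.11 for Pgls, the lactonase, -0.10 for Taldo1, transaldolase, and -0.07 for Rpia. Pgls was at 243 CPM in knockout and 261 CPM in control cells, and was lower in each of the 6 classes compared, from -0.24 in GMP to -0.06 in erythroid cells, without passing 0.25 in any. Pgd in globin-high cells had the largest erythroid ratio of the pathway, 66.4 against 57.8 CPM or 0.20 on the log2 scale.

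In the TCA cycle the highest whole-library ratios were 0.05 for Mdh1, 0.05 for Mdh2 and 0.04 for Idh3a, and the lowest -0.03 for Sdha, a subunit of succinate dehydrogenase, -0.03 for Sucla2, a subunit of succinyl-CoA synthetase, and -0.02 for Fh1. In erythroid cells all 9 lay between -0.03 and 0.06. Cs was at 159 and 161 CPM and Ogdh, a subunit of oxoglutarate dehydrogenase, at 108 and 107 CPM. The intervals of Cs, from -0.04 to 0.00, and Ogdh, from -0.02 to 0.03, lay well inside 0.25. Sdhb, another subunit of succinate dehydrogenase, was at 157 CPM in both libraries.

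Outside erythroid cells the knockout and control libraries differed at fewer members, and these values come from the same 2 libraries. The Brd9 transcript itself was not lowered equally. Its log2 ratio was -2.06 in erythroid and -2.32 in MEP cells. It was -1.39 in HSC/MPP, -1.41 in GMP, -1.34 in mast/basophil and -1.02 in monocyte/dendritic cells. The part of this in the differences between classes was not tested. Slc16a3 was the only member called higher in each of the 6 classes. In HSC/MPP and monocyte/dendritic cells it reached a mean of 20 CPM only through the knockout, as its control level lay below 20 CPM. Its log2 ratio was 1.01 in HSC/MPP cells, at 28.1 and 13.9 CPM, 0.90 (0.60 to 1.21) in monocyte/dendritic cells, at 33.1 and 17.7 CPM, 0.73 (0.56 to 0.90) in GMP cells, at 45.8 and 27.6 CPM, 0.63 (0.44 to 0.82) in MEP cells, at 61.0 and 39.5 CPM, and 0.61 (0.37 to 0.85) in mast/basophil cells, at 62.3 and 40.9 CPM. It made up more of the Slc16a1 and Slc16a3 UMIs in the knockout in each class, from 39.5% against 24.7% in HSC/MPP cells to 61.1% against 51.5% in mast/basophil cells. In GMP cells thinned to 15000 UMIs, Slc16a3 was found in 44.2% of knockout and 30.4% of control cells, against the 2.68% and 1.47% for Pklr given above. Without thinning these were 62.9% and 48.7% for Slc16a3 and 4.90% and 5.73% for Pklr. Pkm, by contrast, had a log2 ratio between 0.02 and 0.17 in the 5 classes other than erythroid, at 523 and 515 CPM in HSC/MPP cells.

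The other calls were spread over classes. In HSC/MPP cells 2 of 34 members were called higher, Hk1 at 63.0 and 49.9 CPM and Slc16a3, against 6.48% of all genes, and 0 lower, against 2.92%. In MEP cells Pfkp, at 31.8 and 25.1 CPM, and Slc16a3 were called higher of 32, against 4.30%, and 0 lower, against 3.88%. In GMP cells Aldoa, Slc2a3, Slc16a3 and G6pdx were called higher of 34, against 6.82%, and 0 lower, against 3.78%. G6pdx was at 59.1 and 49.1 CPM, a log2 ratio of 0.27 (0.13 to 0.41), and was the only call outside glycolysis in these 6 classes. In mast/basophil cells 5 of 33 were called higher, Hk2, Pfkp, Aldoa, Pgam1 and Slc16a3, against 12.2%, and Slc2a3 was called lower, against 6.71%. Pfkp was at 38.0 and 24.6 CPM there, Hk2 at 70.6 and 51.0 CPM, Pgam1 at 463 and 365 CPM and Slc2a3 at 68.8 and 85.4 CPM. The Slc2a3 ratio of -0.31 was -0.18 when the cell with the most of its UMIs was left out, and 0.96 over female cells alone. In monocyte/dendritic cells Hk1 and Slc16a3 were called higher of 33, against 11.4%, and Pfkp lower, at 27.2 and 33.4 CPM, against 6.82%. Outside GMP cells these counts were close to or below the share of any gene. Hepatocyte markers summed to 244 CPM in knockout and 650 CPM in control HSC/MPP cells, and GMP markers to 898 and 1522 CPM, and their part in these ratios was not tested. In GMP cells the GMP markers summed to 8840 and 12559 CPM and the neutrophil markers to 10097 and 11940 CPM, which was likewise not tested. In MEP cells the MEP markers summed to 1476 CPM in the knockout and 1094 in control cells and the GMP markers to 61.8 and 155 CPM. Mast/basophil cells had erythroid markers at 480 and 801 CPM, and monocyte/dendritic cells had their own markers at 711 and 1014 CPM. The part of these sums in the ratios was not tested either.

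**Figure D4:**
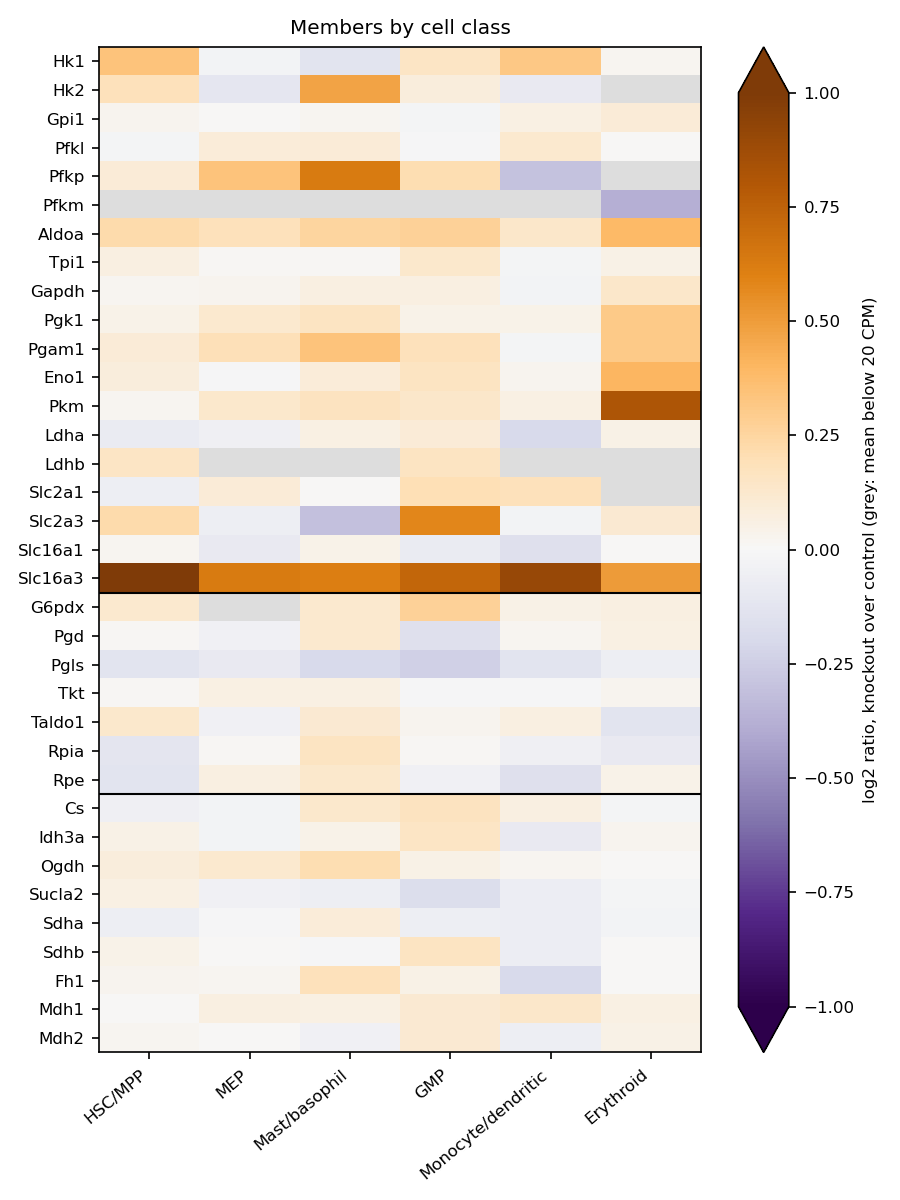
Log2 ratio of knockout over control for each member in 6 cell classes, with grey cells where the mean was below 20 CPM and black lines between branches. Slc16a3 is orange in each class, from 0.50 in erythroid to 1.01 in HSC/MPP cells, while Pkm at 0.82 is dark only in the erythroid column.

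Isoenzyme shares were compared over the cell classes and globin groups. Shares are of UMIs and are compared between cells, not read as amounts of enzyme. In the control, Pkm made up at least 98.2% of Pkm and Pklr UMIs in each class outside the erythroid one, 73.8% in globin-low, 51.3% in globin-middle and 35.2% in globin-high cells. In the knockout the erythroid values were 86.1%, 73.4% and 59.5%. The share in globin-middle knockout cells, 73.4%, lay next to that in globin-low control cells, 73.8%. For Pfkp the control shares were 11.8%, 5.15% and 2.21% of phosphofructokinase UMIs and the knockout shares 20.6%, 11.9% and 6.33%, with globin-middle knockout cells again next to globin-low control cells. For Hk2 among hexokinases they were 13.7%, 6.95% and 2.08% in the control and 17.4%, 10.3% and 3.13% in the knockout. Here globin-middle knockout cells, at 10.3%, lay below globin-low control cells, at 13.7%. Hexokinase also differed in GMP cells, where Hk3, a hexokinase of myeloid cells, was at 12.3 CPM in knockout and 30.2 CPM in control cells, and made up 10.2% and 23.1% of hexokinase UMIs. Slc16a3 did not follow alpha-globin in this way, at 48.0%, 48.6% and 41.8% in the control and 57.4%, 57.4% and 49.8% in the knockout. Genes that fell along the groups differed between the libraries to unlike degrees. Pgd fell from 104 to 57.8 CPM in the control and had a log2 ratio of 0.06 over the erythroid class. Within the globin groups its ratio was -0.05, 0.10 and 0.20 from low to high. Ldha, given above, differed little over the erythroid class. Whether the shares reflect stage was not tested.

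**Figure D5:**
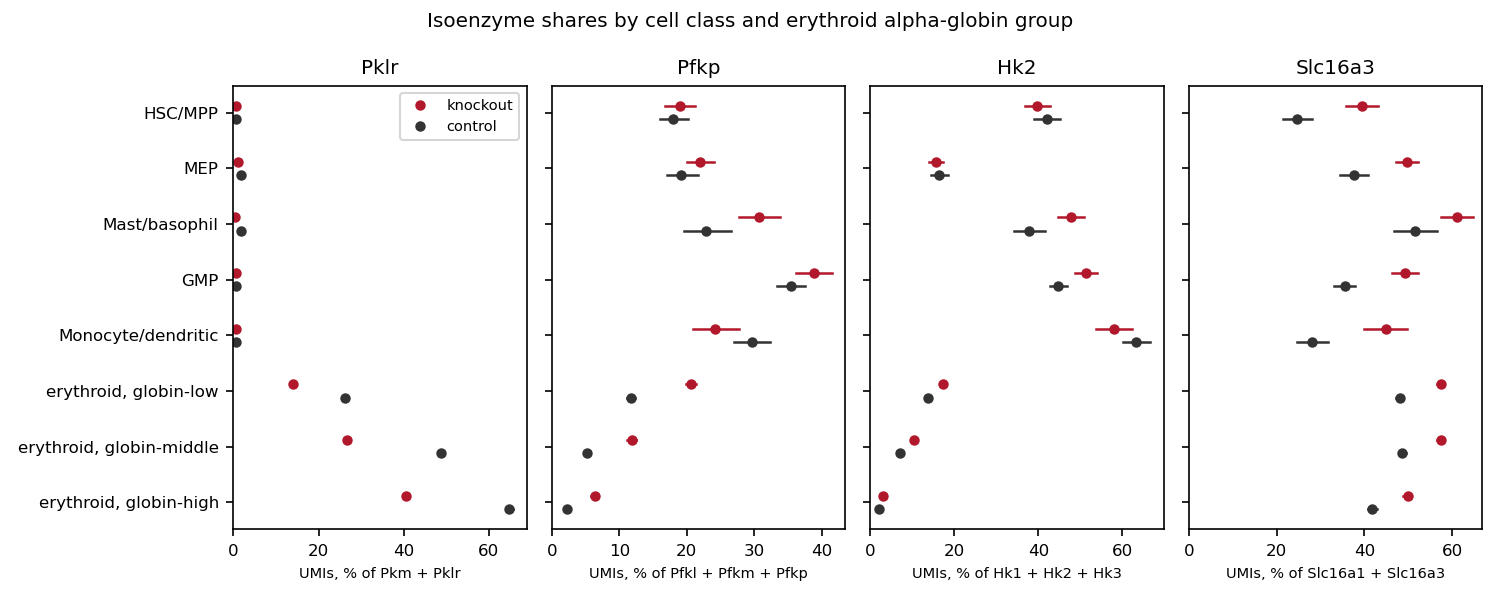
Share of Pklr, Pfkp, Hk2 and Slc16a3 among the UMIs of their isoenzyme families, in percent, in 5 progenitor classes and 3 erythroid alpha-globin groups of the knockout (red) and control (black) library, with 95% Clopper-Pearson intervals and axes from 0. Pklr is near 0 outside erythroid cells and reaches 64.8% in globin-high control cells against 40.5% in the knockout.

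Cell stage and composition differed between the libraries beside these values. In erythroid cells the erythroid markers summed to 7417 CPM in knockout and 8748 CPM in control cells, the MEP markers to 310 and 270 CPM, globins to 0.430% and 0.475% of UMIs, and the median mitochondrial share was 2.43% and 2.97%. Within the globin groups the erythroid markers were also lower in the knockout, at 2230 against 2797 CPM in globin-low and 16901 against 20246 CPM in globin-high cells. The marker list includes alpha and beta globins, so these sums overlap the globin share and the score that set the groups. Globins were 0.0205% and 0.0247% of UMIs in globin-low and 1.24% and 1.44% in globin-high cells. A shift of stage within each group and a difference at equal stage cannot be told apart from these sums. Of 15 erythroid clusters, 3 were made up for over 80% by 1 library, after scaling to equal size. Among the other 12, the log2 ratio was at least 0.25 in 12 of 12 for Pkm, Pfkp and Slc16a3. It was above 0 in 12 of 12 for Aldoa, Eno1, Pgk1, Pgam1, Gapdh and Hk2, and below 0 in 12 of 12 for Pfkm and Pklr. The Pkm ratio ranged from 0.33 to 1.03 over these clusters with a median of 0.81, and that of Pfkp from 0.69 to 1.67 with a median of 1.04.

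The sex mix of the libraries was examined in the same way. Within the control library no member was called between female and male erythroid cells, where log2 ratios lay between -0.11 and 0.08, against 0.442% of all genes. Within the knockout they lay between -0.13 and 0.16, again with 0 called, against 0.889%. Between libraries, the same 6 members were called higher and Pfkm lower in female cells, against 4.58% of all genes called in either direction, and in male cells, against 4.65%. Pkm had a log2 ratio of 0.75 in female and 0.89 in male erythroid cells, and Pfkp 1.15 and 1.04.

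Of 58 further genes of the same pathways, chosen as the remaining isoenzymes, regulators and subunits, 26 reached the minimum level in erythroid cells, with a median log2 ratio of 0.00. Pklr was the only one called, lower, against 2.17% of all genes, and 0 were called higher, against 2.31%. Pdha1, the catalytic subunit of pyruvate dehydrogenase, was at 127 and 146 CPM, a log2 ratio of -0.21. It was called lower in globin-low cells, at 132 and 160 CPM, where 2 of 25 were lower with Pklr, against 2.16% of all genes. Got1, the cytosolic aspartate aminotransferase, was the 1 of 27 called higher in globin-high cells, at 25.3 and 21.1 CPM, against 3.05% of all genes. Bpgm was at 28.5 and 28.2 CPM, a log2 ratio of 0.02 (-0.03 to 0.07), while Pklr was lower in the knockout. Both were higher in globin-high than in globin-low cells of the control, and the part of stage in these ratios was not tested. Pdk1, a kinase that inhibits pyruvate dehydrogenase, was at 77.4 and 78.4 CPM. In GMP cells 2 of 27 genes of this list were called lower, Hk3 and Rbks, against 3.78% of all genes. Hk3 reached the minimum there only through its control level, as its knockout level, given above, lay below 20 CPM. In HSC/MPP cells Idh1, 1 of 26, was called lower, against 2.92%. In monocyte/dendritic cells 4 of 26 were called lower, Pfkfb3, Prps1, Idh1 and Got1, against 6.82%, and Slc16a7 higher, against 11.4%. In mast/basophil cells 1 of 25 was called lower, Pdk1, against 6.71%, and 1 higher, Mpc2, against 12.2%. None was called in MEP cells. Among known regulators of glycolysis genes, Hif1a was at 32.2 and 28.3 CPM in erythroid cells, a log2 ratio of 0.19, and at 27.4 and 21.9 CPM in globin-high cells, where it was called higher with a ratio of 0.32 (0.22 to 0.43). Myc was at 96.4 and 84.7 CPM, also 0.19. Arnt, the partner of Hif1a, was at 31.7 and 30.8 CPM, and Egln1, an oxygen sensor that marks Hif1a for decay, at 38.9 and 38.4 CPM. In other classes Myc was called lower in HSC/MPP cells, at -0.28, against 2.92% of all genes, and in monocyte/dendritic cells, at -0.48. There Egln2 was also lower, at -0.26, against 6.82%, and Arnt higher, at 0.33, against 11.4%. Egln3 was called higher in GMP cells, at 0.33, against 6.82%. Transcript levels of these regulators do not show their activity.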

How the data were processed

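Single-cell RNA libraries (10x 3′ kit v3.1) of 2 samples, 1 per genotype, were compared. The deposited values are raw UMI counts per gene and cell; Cell Ranger 7.2.0 and the mm10 build are named in the submitters' processing notes, and the handling of intronic reads is unstated. Cells were kept from 1000 genes and 2000 UMIs upward if their mitochondrial share did not exceed 10%, and doublets called by Scrublet (expected share 6%) were removed, 245 in the knockout and 240 in the control. The libraries totalled 271350214 and 292972312 UMIs.

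Both libraries were clustered together with scanpy 1.11.5 (3000 variable genes, 30 components, 15 neighbours, Leiden resolution 1), without the members, cell cycle, sex-linked, mitochondrial and ribosomal genes or Brd9, and without integration. This gave 21 clusters, named from fixed marker lists. Some erythroid clusters had too few markers among their top genes and were named by the mean level of the erythroid markers. Under other settings, clusters with some of the same top genes were named MEP or left unnamed. The rule that scores the markers was revised after the clusters had been seen. UMIs were summed per library and class and scaled to CPM, with exact Poisson intervals for levels, conditional exact intervals for ratios and Clopper-Pearson intervals for shares, computed with scipy 1.17.1. Because cells are not replicates, no p-value was computed. The ratio procedure was tested on simulated data.

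The members, gene lists and comparisons were chosen with earlier results of these data known. All 35 members are accounted for; those called over the whole library or in at least 2 classes, and the 3 highest and 3 lowest of each branch, are given in full. Alternatives changed the clustering, filters, scaling, minimum level, threshold, cells by sex and the stage score; the closing section gives their effect. Promoter windows are from RefSeq (GRCm38.p6); Slc2a3 and Idh3a had no window.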

Additional observations from a re-analysis of the deposited data

Results flagged for a closer look

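Pfkp was higher in the knockout in MEP cells, with a log2 ratio of 0.34, and lower in monocyte/dendritic cells, with -0.30, so that the ratios lay 0.64 apart. In mast/basophil cells its ratio was 0.63, which lay 0.93 from that of the monocyte/dendritic cells. In male cells the monocyte/dendritic ratio was -0.08, and in female cells -0.41. Slc2a3 was higher in GMP cells, with 0.58, and lower in mast/basophil cells, with -0.31, which lay 0.89 apart. The mast/basophil ratio was -0.55 in male and 0.96 in female cells, and the GMP ratio 0.50 and 0.24. Each was picked out because both classes passed the threshold in opposite directions with intervals that did not include 0. The differences were not tested, since there was 1 library per genotype.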

How the results depend on the processing

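No paired analysis was possible because each genotype had 1 library. Of the counts and ratios that answer a comparison, 163 recomputed values stayed within the limits set for them and 26 did not. The 6 erythroid members called higher became 2 at a threshold of 0.5, and the 1 called lower became 0 at that threshold and at a minimum of 50 CPM. Over the whole library the 4 called higher became 7 at a threshold of 0.15 and 2 at 0.5, and the 1 called lower became 0 at a minimum of 50 CPM and at a threshold of 0.5. Over the globin groups the 20 pairs of member and group called higher became 7 at 0.5, and the 3 called lower became 0 at 0.5 and at 50 CPM. In the other classes the 15 pairs of member and class called higher became 8 at 50 CPM, 26 in male cells, 33 at 0.15 and 7 at 0.5. The 2 pairs called lower became 1 at resolution 0.6, at 50 CPM and without the top cell, 4 in female cells, 5 in male cells, 7 at 0.15 and 0 at 0.5. The 8 members at least 0.5 higher in erythroid than in HSC/MPP cells became 5 at 50 CPM. The log2 ratio of Pkm to Pklr, 1.28, was 1.32 with the members kept in clustering, 1.24 in female cells, 1.37 in male cells and 1.35 without the library-specific clusters. Of 1728 values for single genes, 1447 moved by less than their counting interval, 280 moved further and 1 reversed, Slc2a3 in mast/basophil cells, which was 0.96 in female cells. Settings that change the threshold or the minimum alter the counts by construction, and for the others the cause was not tested. The stricter cell filter left no monocyte/dendritic class, so the other classes have no count under it. The median gene ratio was 0.03, so scaling by it turns the sign of members within 0.03 of 0. Leaving out cells with transcripts of both sexes was added after seeing the data. Depth limits the classes outside the erythroid one, where intervals were several times wider, and genotype cannot be told apart from library.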
